A study of Mus musculus with 18 samples.

Results

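Macrophages that take up modified lipoprotein turn into foam cells by packing neutral lipid into droplets, and the transcripts described here are those of the enzymes that fill and empty these droplets. The set held 10 genes named by function: the esterifying enzymes Soat1, Dgat1 and Dgat2, the neutral lipases Pnpla2, Lipe and Nceh1, the lipase regulators Abhd5, Hilpda and G0s2, and the droplet fusion gene Cidec. Of the 10, 9 had a row among the 18668 genes of the expression table, and all 9 passed the filter on low values, which left 12838 genes for testing. Cidec was not analysed here.

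The cells were bone marrow-derived macrophages (BMDM), grown from mouse marrow with M-CSF, the growth factor that drives macrophage differentiation. Marrow came from Apoe-/- mice, which lack apolipoprotein E and are prone to atherosclerosis, or from mice lacking Treml4 as well, Apoe-/-/Treml4-/- (DKO), all on a C57BL6 background, so every group lacked Apoe and no Apoe-sufficient control was included. Cells of each genotype were left with the PBS vehicle (untreated) or given oxidised low-density lipoprotein (oxLDL) at 10 µg/ml (oxLDL 10) or 60 µg/ml (oxLDL 60), with 3 biological replicates in each of the 6 groups and 18 libraries in all. The design text gives 7 days of differentiation and 16 h of oxLDL. Another source gives a longer exposure and the treatment label names LPS, a discrepancy that was not resolved. The donors' ages are not given in the sources used here. No Cre or tissue promoter is named for either deletion, and the DKO mice were intercrossed for generations as a line of their own, so line and genotype cannot be told apart.

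Cholesterol and fatty acids are stored as esters because the free forms harm membranes. SOAT1 (ACAT1) joins a fatty acid to cholesterol in the endoplasmic reticulum, and DGAT1 and DGAT2 add the last fatty acid to diacylglycerol to make triglyceride. In the other direction ATGL, the product of Pnpla2, removes the first fatty acid from triglyceride, hormone-sensitive lipase, the product of Lipe, acts on diacylglycerol and cholesteryl esters, and NCEH1 is a microsomal hydrolase of neutral cholesteryl esters found in macrophages. ABHD5 (CGI-58) activates ATGL, whereas G0S2 and HILPDA bind and inhibit it, and the cycle of esterification and hydrolysis sets how much cholesterol is free to leave the foam cell.

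With oxLDL 60, transcripts of the droplet cycle changed in both directions. Hilpda, an ATGL inhibitor, rose 3.96-fold in Apoe-/- and 3.45-fold in DKO cells (ratio of mean RPKM, n = 3 per group), and Nceh1, a cholesteryl ester hydrolase, rose 1.95-fold and 1.74-fold. Lipe, hormone-sensitive lipase, fell to 0.557 and 0.529 of its untreated mean. Transcripts of the lipase ATGL (Pnpla2) and of its activator Abhd5 stayed within 0.876 to 1.01 times the untreated mean except for Pnpla2 in DKO, at 0.839, and neither passed the test. No member passed the main test between the genotypes at any treatment. When the libraries that expressed Xist, a transcript of females, were left out, Hilpda was called higher in DKO untreated and with oxLDL 10.

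Several checks of the libraries bear on these values. Levels are RPKM, read numbers scaled to transcript length and library size. Depth was estimated from the steps between low values and from exon lengths of the GENCODE M21 annotation. It came to between 39.7 and 54.2 M reads per library, or read pairs if pairs were counted (M, 10 to the power of 6). Treml4 measured 1.86 to 8.39 RPKM in Apoe-/- libraries, whereas 8 DKO libraries had it at 0 and the other reached 0.0116 RPKM. Xist, transcribed from the inactive X of females, was over 1 RPKM in replicate 2 of Apoe-/- and replicate 3 of DKO at all 3 treatments, hence in 6 libraries, so results that rest on these libraries are given with and without them. All 6 macrophage markers were present (summed level 5444 to 11670 RPKM over libraries), with Cd68 at 434 to 671 RPKM, while the adipocyte markers Cfd and Retn were at 0 in most libraries and summed to at most 0.0261 RPKM. The other adipocyte markers of the list, Adipoq, Lep and Plin1, were not analysed here. Neutrophil and precursor markers summed to 27.4 to 75.6 RPKM over libraries, and stromal cell markers to 0.228 to 6.70 RPKM. In untreated cells the neutrophil and precursor sum was 27.4 to 43.3 RPKM in Apoe-/- and 33.4 to 75.6 in DKO. In these bulk samples, fewer cells of a type and less RNA per cell cannot be told apart.

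Level differed far more between members than between treatments. In RPKM, which is per transcript length, Nceh1 and Soat1 stood highest in all 6 groups, with group means of 62.6 to 121.8 and 63.4 to 90.7. Below them came Abhd5 (21.3 to 24.4) and Pnpla2 (10.8 to 12.8). Lipe (3.37 to 6.44), Dgat1 (4.33 to 5.67) and Hilpda (4.08 to 17.7) exchanged places with treatment, and Dgat2 (0.265 to 0.480) and G0s2 (0.126 to 0.490) lay far beneath. In untreated Apoe-/- cells the neighbours Soat1 (63.4 ± 5.81, SD, n = 3) and Nceh1 (62.6 ± 3.40) differed by less than their spread, as did Dgat1 (4.33 ± 0.333) and Hilpda (4.08 ± 0.323). With oxLDL 60, Hilpda (16.2 ± 1.29) stood above Pnpla2 (12.2 ± 1.18), with no overlap between the libraries.

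**Figure D1:**
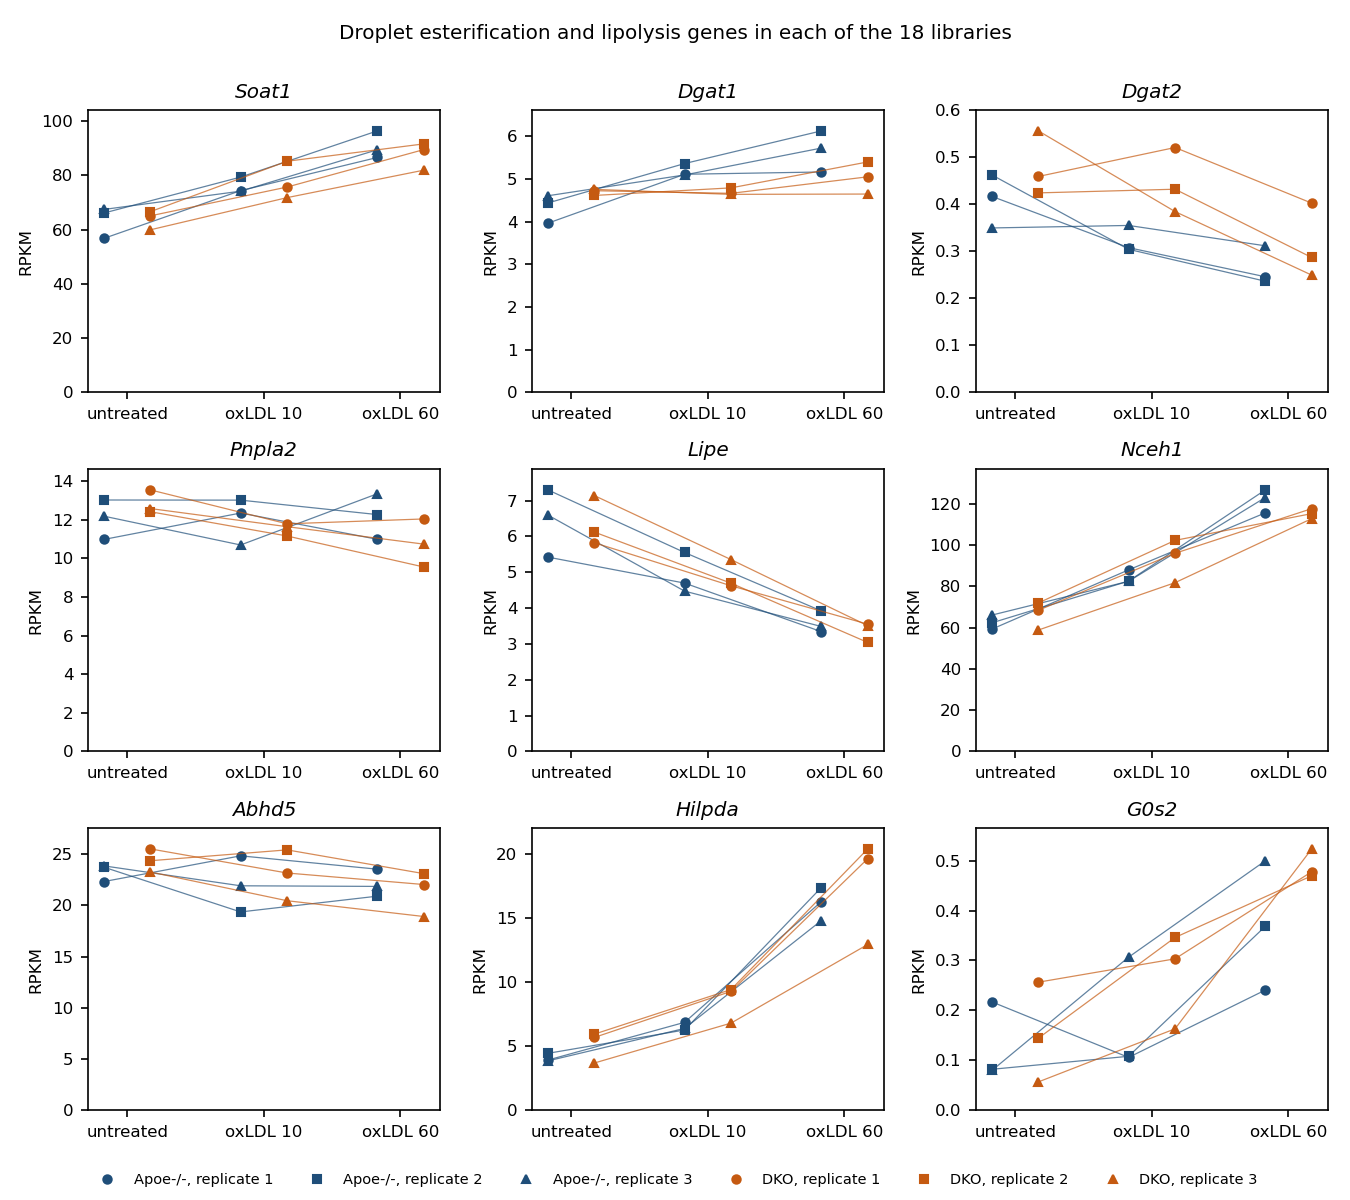
Level in RPKM (vertical axis, linear, starting at 0) of the 9 members in every library by treatment, blue for Apoe-/- and orange for DKO, with a marker shape for each replicate number and lines joining libraries of 1 genotype that share a number. Hilpda climbs from between 3.70 and 5.95 RPKM to between 12.9 and 20.4, and Nceh1 climbs at each step. Lipe descends from between 5.42 and 7.30 to between 3.04 and 3.92. Pnpla2 and Abhd5 run nearly level in Apoe-/-. In DKO, Pnpla2 with either amount of oxLDL and Abhd5 with oxLDL 60 lie below the untreated libraries.

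In the GENCODE M21 annotation of GRCm38, Hilpda spans chr6:29272488-29275446 and Nceh1 chr3:27182965-27284608 on the plus strand, and Lipe chr7:25379527-25398710 and Soat1 chr1:156424525-156474331 on the minus strand. To set the transcripts beside the DNA they start from, promoter windows were read for the members that moved. RefSeq (GRCm38.p6) held windows of 250 bases before and 50 after a start site for 8 of the 10 members, in 11 entries. The 4 windows below are shown because they belong to Soat1, Nceh1 and Hilpda, which rose with oxLDL 60 in Apoe-/- cells, and to Lipe, which fell, and hold a match. G0s2, which also rose, and the other start sites of Hilpda and Lipe have windows without any of the motifs searched, and these are not printed. Capitals mark ACGTG, a form of the core of sites bound by hypoxia-inducible factors, or TGACNNNGC, the core of the antioxidant response element. Both were searched on both strands. Other forms of the hypoxia core were not searched, so a window without ACGTG may still hold one. ACGTG also lies inside CACGTG, the palindrome read by other basic helix-loop-helix factors, where it matches on both strands and the matches overlap.
Soat1, chr1:156474279-156474578, minus strand: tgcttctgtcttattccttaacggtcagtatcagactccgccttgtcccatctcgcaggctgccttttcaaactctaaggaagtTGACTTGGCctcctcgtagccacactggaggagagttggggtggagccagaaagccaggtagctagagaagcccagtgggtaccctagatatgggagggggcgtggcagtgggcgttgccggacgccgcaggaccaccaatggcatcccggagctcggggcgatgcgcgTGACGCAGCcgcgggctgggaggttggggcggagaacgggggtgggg
Nceh1, chr3:27182754-27183053, plus strand: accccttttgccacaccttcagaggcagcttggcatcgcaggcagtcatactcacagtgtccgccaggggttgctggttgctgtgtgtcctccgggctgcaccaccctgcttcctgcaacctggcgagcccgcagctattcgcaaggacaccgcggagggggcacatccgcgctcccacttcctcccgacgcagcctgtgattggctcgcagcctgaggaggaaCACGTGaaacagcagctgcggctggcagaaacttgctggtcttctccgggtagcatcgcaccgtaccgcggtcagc
Hilpda, the second of its pair of start sites, chr6:29272376-29272675, plus strand: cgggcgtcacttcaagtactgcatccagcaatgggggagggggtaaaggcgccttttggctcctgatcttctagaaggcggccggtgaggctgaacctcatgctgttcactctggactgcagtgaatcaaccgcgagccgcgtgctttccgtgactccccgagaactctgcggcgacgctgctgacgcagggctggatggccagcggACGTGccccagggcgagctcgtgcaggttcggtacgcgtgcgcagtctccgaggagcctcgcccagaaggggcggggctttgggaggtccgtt
Lipe, the first of its pair of start sites, chr7:25395938-25396237, minus strand: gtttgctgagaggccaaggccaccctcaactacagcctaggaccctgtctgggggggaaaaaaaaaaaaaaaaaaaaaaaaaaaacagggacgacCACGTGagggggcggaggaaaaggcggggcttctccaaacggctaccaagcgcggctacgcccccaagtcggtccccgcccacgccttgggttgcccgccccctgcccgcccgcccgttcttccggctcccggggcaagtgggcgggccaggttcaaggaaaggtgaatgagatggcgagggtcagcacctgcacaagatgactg

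The Hilpda window held ACGTG 43 bases before the start, and the window of its other start site held none. These windows overlap, and the match lies just past the downstream end of the other window (chr6:29272238-29272537). In Nceh1 and Lipe the match was the palindrome, with its first base at position -26 in Nceh1 and -155 in Lipe relative to the start. Soat1 held TGACNNNGC at 166 bases before and 4 bases after its start. Over all 32851 mouse promoters of the same length, ACGTG was found in 19.6% and TGACNNNGC in 12.4%, so each is common, and ACGTG stood in a promoter of genes that rose and of the gene that fell. The nuclear receptor half-site AGGTCA, in 16.3% of promoters, was found in Abhd5 alone among the 8 members. Matches of letters are descriptions and are not evidence of binding.

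The question of how lipid loading changes these transcripts was addressed by comparing each amount of oxLDL with untreated cells within a genotype. A call needed a limma adjusted p below 0.05 together with a fold change of 1.4 or more. In Apoe-/- cells with oxLDL 60, 4 of the 9 members rose (Hilpda, G0s2, Nceh1 and Soat1) and 1 fell (Lipe), where 7.13% of all genes tested were called higher and 6.78% lower. In DKO cells with oxLDL 60, 3 rose (Hilpda, G0s2 and Nceh1) and 2 fell (Lipe and Dgat2), against 4.87% and 7.31% of all genes. The median log2 fold change over the members was 0.38 in Apoe-/- and 0.09 in DKO, beside 0.06 and -0.06 over all genes. With 9 members this median is the value of a single gene, and it was Dgat1 in both genotypes. The genotype difference in the Dgat1 change did not pass the interaction test (limma adjusted p = 0.507), so the medians do not show a weaker response of the members in DKO. With rescaling of the libraries by the median ratio, the calls over all genes went from 915 higher and 871 lower to 776 and 1016 in Apoe-/-, and from 625 and 939 to 770 and 801 in DKO.

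With oxLDL 10, Hilpda rose in Apoe-/- cells as the only member called, where 0.748% of all genes were higher and 2.04% lower. In DKO cells Hilpda and Nceh1 rose, against 0.569% higher and 1.69% lower. From oxLDL 10 to oxLDL 60, Hilpda and Nceh1 rose further in Apoe-/- (2.91% of genes higher, 3.54% lower), whereas in DKO Hilpda rose and Lipe fell (1.92% higher, 3.74% lower). The macrophage markers moved in different directions with oxLDL 60. Their summed level, most of it Lyz2 (3970 to 9911 RPKM over libraries), ran from 8596 to 11324 RPKM in untreated Apoe-/- libraries and from 6408 to 8336 with oxLDL 60. In DKO it ran from 8036 to 10501 and from 5444 to 7027. Among the markers Lyz2 fell (log2 fold change -0.61 in Apoe-/-, -0.71 in DKO) and Mertk rose (0.68 and 0.70). Adgre1 fell in Apoe-/- (-0.50), and its -0.47 in DKO (limma adjusted p = 0.0055) missed the fold limit. Cd68 (0.42 and 0.29) and Csf1r (-0.34 and -0.37) had a limma adjusted p under 0.05 in both genotypes but missed the fold limit. Itgam (-0.25 and -0.24) was not called. No neutrophil, dendritic or stromal marker that could be tested was called with oxLDL 60, and the part of cell composition in the members' changes was not tested.

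**Figure D2:**
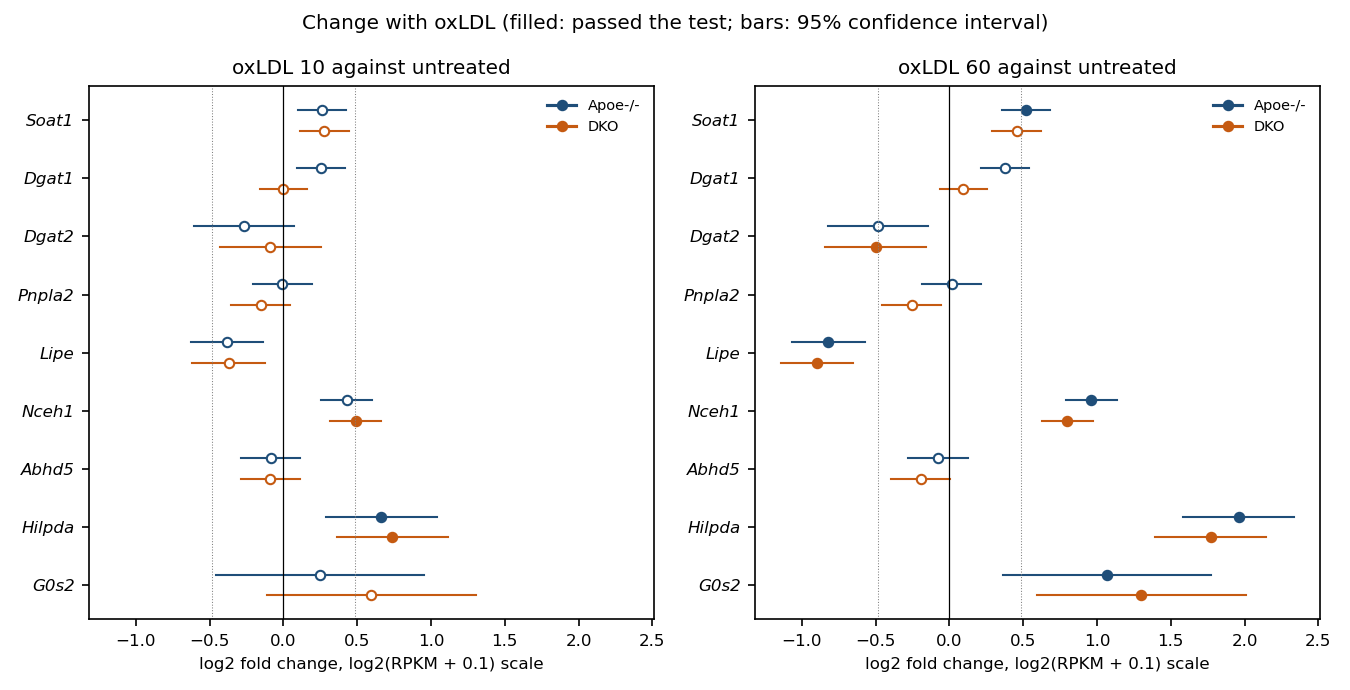
Log2 fold change on the log2(RPKM + 0.1) scale (horizontal axis) of each member with oxLDL 10 (left) and oxLDL 60 (right) against untreated cells, blue for Apoe-/- and orange for DKO. Bars are 95% confidence intervals, filled points passed the test and dotted lines mark a fold change of 1.4. With oxLDL 60 the intervals of Hilpda, Nceh1, Soat1 and G0s2 lie above 0 and those of Lipe and Dgat2 below 0 in both genotypes.

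Among the regulators of lipolysis, Hilpda, a small droplet protein known as a target of hypoxia and fatty acids, changed most. In Apoe-/- cells Hilpda measured 3.93, 4.45 and 3.86 RPKM untreated in replicates 1, 2 and 3 (the order of all such values), 6.87, 6.27 and 6.40 with oxLDL 10, and 16.3, 17.4 and 14.8 with oxLDL 60. The DKO libraries measured 5.69, 5.95 and 3.70, then 9.29, 9.43 and 6.81, then 19.6, 20.4 and 12.9 RPKM. The 3 treatments did not overlap in either genotype, and DKO replicate 3 was the lowest DKO library at each of them. In Apoe-/- the log2 fold change of Hilpda was 0.66 ± 0.178 (SE) with oxLDL 10 (limma adjusted p = 0.0333) and 1.96 ± 0.178 with oxLDL 60 (limma adjusted p = 2.8e-07). In DKO it was 0.74 with oxLDL 10 (limma adjusted p = 0.0239) and 1.77 with oxLDL 60 (limma adjusted p = 9.7e-07).

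The step from oxLDL 10 to oxLDL 60 added 1.30 in Apoe-/- (limma adjusted p = 9.1e-05) and 1.03 in DKO (limma adjusted p = 0.00074) to the log2 level of Hilpda. Between same-numbered libraries of DKO the log2 change of Hilpda with oxLDL 60 was 1.77, 1.76 and 1.78 in replicates 1, 2 and 3, although replicate 3 started lower. In Apoe-/- the same differences were 2.02, 1.94 and 1.91. The oxLDL 60 calls of Hilpda held in all 16 alternatives in each genotype. The oxLDL 10 call in Apoe-/- was lost when any 1 of the 6 compared libraries was left out (limma adjusted p 0.057 to 0.111), and in DKO it was lost without untreated replicate 3 (limma adjusted p = 0.148), without oxLDL 10 replicate 1 (0.123) or without oxLDL 10 replicate 2 (0.130). Without a filter both oxLDL 10 calls were lost, as was that in Apoe-/- without a trend and that in DKO with only the compared groups. Over all alternatives the limma adjusted p ran from 7.7e-06 to 0.111 in Apoe-/- and from 3.5e-06 to 0.148 in DKO.

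G0s2, the other ATGL inhibitor, rose with oxLDL 60 from a level close to the limit of detection. The G0s2 values in Apoe-/- were 0.217, 0.0823 and 0.0800 RPKM untreated, 0.106, 0.108 and 0.307 with oxLDL 10, and 0.241, 0.368 and 0.499 with oxLDL 60. DKO libraries gave 0.257, 0.145 and 0.0571, then 0.303, 0.346 and 0.163, then 0.478, 0.469 and 0.523 RPKM. The oxLDL 60 libraries lay above the untreated ones in both genotypes, and in Apoe-/- the lowest treated library (0.241) stood just above the highest untreated one (0.217). Over the 18 libraries the values stood for an estimated 2 to 22 reads. The log2 fold change of G0s2 was 1.07 ± 0.334 in Apoe-/- (limma adjusted p = 0.0222) and 1.30 ± 0.334 in DKO (limma adjusted p = 0.00782), and it depends on the added 0.1 RPKM, falling to 0.28 and 0.37 with 1 RPKM added. Without the libraries that hold Xist both calls were lost (limma adjusted p = 0.0734 and 0.0739), and in Apoe-/- the call was also lost without untreated replicate 2 or 3 or oxLDL 60 replicate 2 or 3 (limma adjusted p 0.057 to 0.0962).

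Abhd5, the coactivator of ATGL, stayed between 18.9 and 25.5 RPKM in all 18 libraries. With oxLDL 60 its log2 fold change was -0.08 in Apoe-/- (95% interval -0.28 to 0.12) and -0.19 in DKO (-0.40 to 0.01), so a change as large as 1.4-fold lay outside both intervals. Of its exon bases, 15.95% lie under an antisense transcript, A730085K08Rik, which reached at most 0.118 RPKM, and the use of strand in counting is not given in the sources used here.

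Among the neutral lipases, Nceh1 rose and Lipe fell. For Nceh1 the Apoe-/- libraries gave 59.3, 62.3 and 66.1 RPKM untreated, 88.0, 82.6 and 82.5 with oxLDL 10, and 115.6, 126.8 and 123.1 with oxLDL 60. The DKO values were 68.4, 72.0 and 58.8, then 96.0, 102.3 and 81.8, then 117.7, 115.3 and 112.8 RPKM. The order untreated, oxLDL 10, oxLDL 60 held without overlap in each genotype. The log2 fold change of Nceh1 with oxLDL 60 was 0.96 ± 0.0817 in Apoe-/- (limma adjusted p = 1.3e-07) and 0.80 ± 0.0817 in DKO (limma adjusted p = 1.2e-06), and both calls held in all 16 alternatives.

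With oxLDL 10 the log2 fold change of Nceh1 was 0.43 in Apoe-/- (limma adjusted p = 0.00395), short of the fold limit, and 0.49 in DKO (limma adjusted p = 0.00215), just past it, so the change was called in 1 genotype and not in the other at nearly equal size. The difference between the genotypes in this change was 0.06 (95% interval -0.19 to 0.30). The DKO value fell to 0.41 without untreated replicate 3, 0.47 without oxLDL 10 replicate 1 and 0.42 without oxLDL 10 replicate 2, each under the fold limit. The DKO call was also lost with 1 RPKM added, after rescaling and with only the compared groups in the fit. From oxLDL 10 to oxLDL 60, Nceh1 rose by a further 0.53 in Apoe-/- (limma adjusted p = 0.00027), a call lost without the libraries that hold Xist (0.49, just under the fold limit), while the 0.31 in DKO (limma adjusted p = 0.0162) missed the fold limit.

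Lipe, which encodes hormone-sensitive lipase, had the opposite course. Apoe-/- libraries held Lipe at 5.42, 7.30 and 6.60 RPKM untreated, 4.70, 5.55 and 4.47 with oxLDL 10, and 3.34, 3.92 and 3.49 with oxLDL 60. The DKO libraries held 5.82, 6.12 and 7.14, then 4.62, 4.70 and 5.35, then 3.55, 3.04 and 3.51 RPKM. All oxLDL 60 libraries lay below all oxLDL 10 and untreated libraries of their genotype, whereas in Apoe-/- oxLDL 10 replicate 2 reached above untreated replicate 1. The log2 fold change of Lipe with oxLDL 60 was -0.82 ± 0.116 in Apoe-/- (limma adjusted p = 4e-05) and -0.90 ± 0.116 in DKO (limma adjusted p = 1.7e-05), and both calls held in all 16 alternatives.

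With oxLDL 10 the values for Lipe were -0.38 in Apoe-/- and -0.37 in DKO (limma adjusted p = 0.0589 and 0.0987), which did not pass, although Lipe was called in Apoe-/- without untreated replicate 1. Over the alternatives the limma adjusted p ran from 0.00325 to 0.218 in Apoe-/- and from 0.0048 to 0.446 in DKO. From oxLDL 10 to oxLDL 60 the change in DKO was -0.53 (limma adjusted p = 0.0053). The call was lost without oxLDL 10 replicate 3 (-0.46) or oxLDL 60 replicate 2 (-0.46), with 1 RPKM added and after rescaling. In Apoe-/- the same step gave -0.44 (limma adjusted p = 0.017), below the fold limit. The adipocyte markers Cfd and Retn reached at most 0.0261 and 0.0143 RPKM, and a part of adipocytes in the level of Lipe was not tested. An antisense transcript, 4732471J01Rik, covers 15.6% of the exon bases of Lipe and reached at most 0.0701 RPKM.

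Pnpla2, encoding ATGL itself, lay between 9.55 and 13.5 RPKM in all 18 libraries. In Apoe-/- cells its log2 fold change with oxLDL 60 was 0.02 (95% interval -0.19 to 0.22). In DKO cells it was -0.26 (95% interval -0.46 to -0.06, limma adjusted p = 0.0566), with the 3 oxLDL 60 libraries at 12.0, 9.55 and 10.7 RPKM below the untreated ones at 13.5, 12.4 and 12.6. Over the alternatives the limma adjusted p of this DKO change ran from 0.0182 to 0.247, and none called it. The difference between the genotypes in the oxLDL 60 change was -0.27 (95% interval -0.56 to 0.01, limma adjusted p = 0.513). With oxLDL 10 the DKO libraries of Pnpla2 also lay below the untreated ones, at a log2 fold change of -0.15 (95% interval -0.35 to 0.05) that did not pass.

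On the esterifying side, Soat1, the sterol O-acyltransferase of macrophages, rose in Apoe-/- cells by a smaller factor from a high level. The Apoe-/- levels of Soat1 were 56.7, 66.1 and 67.4 RPKM untreated, 74.3, 79.3 and 74.1 with oxLDL 10, and 86.5, 96.3 and 89.4 with oxLDL 60. DKO cells had 65.0, 66.6 and 59.9, then 75.6, 85.2 and 71.7, then 89.4, 91.5 and 81.9 RPKM. Treated and untreated libraries did not overlap in either genotype, and only DKO oxLDL 10 replicate 2 reached into the range of the oxLDL 60 libraries of its genotype. The log2 fold change of Soat1 with oxLDL 60 was 0.52 ± 0.0778 in Apoe-/- (limma adjusted p = 7.1e-05), which was called, and 0.46 ± 0.0778 in DKO (limma adjusted p = 0.00028), which missed the fold limit. The difference between these changes was -0.06 (95% interval -0.30 to 0.17).

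The Soat1 values sit at the fold limit, so the call moved with the scale. After rescaling by the median ratio the change was 0.46 in Apoe-/- and 0.52 in DKO, and the call passed from the first to the second. In Apoe-/- the call was also lost without untreated replicate 1 (0.44) or oxLDL 60 replicate 2 (0.48), although the limma adjusted p stayed at 0.00144 or lower in all alternatives. With oxLDL 10 the change was 0.26 in Apoe-/- and 0.28 in DKO (limma adjusted p = 0.0512 and 0.0575), and neither passed. Over the alternatives the limma adjusted p ran from 0.00385 to 0.194 in Apoe-/- and from 0.00321 to 0.319 in DKO. The change reached at most 0.309 and 0.331, under the fold limit.

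Dgat1 and Dgat2 are unrelated in sequence although they catalyse the same step, and their values went in opposite directions in Apoe-/- cells, without passing the fold limit. Dgat1 in Apoe-/- cells measured 3.96, 4.44 and 4.604 RPKM untreated, 5.11, 5.36 and 5.09 with oxLDL 10, and 5.16, 6.12 and 5.72 with oxLDL 60. DKO libraries had 4.72, 4.61 and 4.75, then 4.66, 4.79 and 4.64, then 5.05, 5.40 and 4.64 RPKM. In Apoe-/- every treated library lay above the untreated ones, and in DKO the groups overlapped. The log2 fold change of Dgat1 with oxLDL 60 was 0.38 ± 0.0762 in Apoe-/- (limma adjusted p = 0.00107), under the fold limit, and 0.09 ± 0.0762 in DKO (limma adjusted p = 0.41).

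The difference between the genotypes in the Dgat1 change was -0.28 with oxLDL 60 (95% interval -0.51 to -0.06, unadjusted p = 0.0177, limma adjusted p = 0.507) and -0.26 with oxLDL 10 (-0.48 to -0.03, unadjusted p = 0.0301, limma adjusted p = 1.0), and neither passed. Over all genes the median difference with oxLDL 60 was itself -0.11 and went to 0.01 after rescaling by the median ratio. On that scale the Dgat1 difference was -0.16.

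Dgat2 was measured at 0.236 to 0.556 RPKM, an estimated 24 to 55 reads. The 3 treatments gave Dgat2 levels in Apoe-/- of 0.417, 0.462 and 0.350 RPKM untreated, 0.308, 0.304 and 0.355 with oxLDL 10, and 0.246, 0.236 and 0.312 with oxLDL 60. Those of DKO were 0.459, 0.424 and 0.556, then 0.521, 0.432 and 0.384, then 0.402, 0.287 and 0.249 RPKM. The oxLDL 60 libraries lay below the untreated ones in each genotype. The log2 fold change of Dgat2 with oxLDL 60 was -0.48 ± 0.161 in Apoe-/- (limma adjusted p = 0.031), just short of the fold limit, and -0.50 ± 0.161 in DKO (limma adjusted p = 0.0293), just past it.

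The DKO call of Dgat2 was lost in 8 of 15 alternatives: with 1 RPKM added, after rescaling, with only the compared groups in the fit, without the libraries that hold Xist (-0.30, limma adjusted p = 0.354), and without untreated replicate 1 (-0.52) or 3 (-0.41) or oxLDL 60 replicate 2 (-0.46) or 3 (-0.39). The DKO change by same-numbered pair was -0.15, -0.44 and -0.91, and the Apoe-/- change -0.58, -0.74 and -0.13. All 6 differences were below 0, with a wide spread in size. In Apoe-/-, Dgat2 was called in 5 of 16 alternatives: with 0.01 RPKM added (-0.61), after rescaling (-0.53), without the fold limit, and without untreated replicate 3 or oxLDL 60 replicate 3. These 16 include the fit without the fold limit, which the 15 for DKO leave out. Counted with it, Dgat2 was called in 8 of 16 alternatives in DKO. Rescaling thus moved the call from DKO to Apoe-/-.

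To ask whether loss of Treml4 changed these transcripts, DKO cells were compared with Apoe-/- cells at each treatment, and the change with oxLDL was compared between genotypes. By limma, no member was called untreated (0.21% of all genes called), with oxLDL 10 (0.0857%) or with oxLDL 60 (0.125%). None was called in the interaction of genotype with oxLDL 10 (0.0% of genes, with 0 genes called and 246 at an unadjusted p under 0.05) or with oxLDL 60 (0.0156%, 2 genes). At an unadjusted p under 0.05 there were 0 members untreated, 1 with oxLDL 10 (Dgat2), 1 with oxLDL 60 (Dgat1) and 1 in each interaction (Dgat1). Over all 12838 genes the numbers at that threshold were 2225 untreated, 1252 with oxLDL 10, 1011 with oxLDL 60, 1256 in the oxLDL 60 interaction and 246 in the oxLDL 10 interaction. Counts of 0 or 1 among 9 members are near this background in all but the last, and nothing is read from them. For Soat1, Nceh1, Dgat1, Pnpla2, Lipe and Abhd5 the 95% intervals of the genotype difference at the 3 treatments lay within -0.38 to 0.31 on the log2 scale. They reached from -0.17 to 0.70 for Dgat2, from -0.27 to 0.74 for Hilpda and from -0.57 to 1.19 for G0s2.

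**Figure D3:**
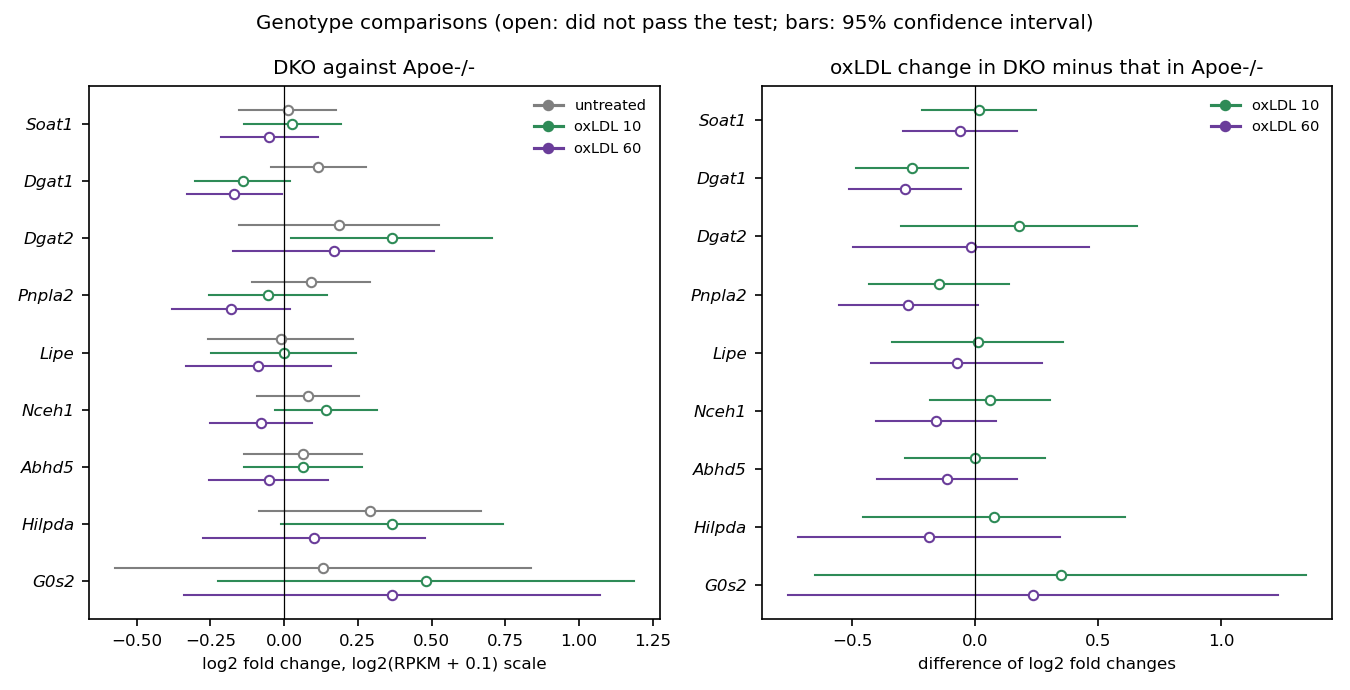
Log2 difference on the log2(RPKM + 0.1) scale (horizontal axis) between DKO and Apoe-/- cells at each treatment (left) and between the oxLDL changes of the genotypes (right) for each member, in grey for untreated, green for oxLDL 10 and purple for oxLDL 60. Bars are 95% confidence intervals and all points are open, since no member passed the test; the intervals of Dgat1 in both interactions, of Dgat1 with oxLDL 60 and of Dgat2 with oxLDL 10 miss 0 before adjustment, and those of G0s2 are the widest.

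The genotype comparison of Hilpda depended on the libraries that hold Xist. Over all libraries its log2 difference between DKO and Apoe-/- was 0.29 untreated (95% interval -0.09 to 0.67), 0.37 with oxLDL 10 (-0.01 to 0.74) and 0.10 with oxLDL 60 (-0.27 to 0.48). In the libraries without Xist, replicates 1 and 2 of DKO lay above replicates 1 and 3 of Apoe-/- at all 3 treatments: 5.69 and 5.95 against 3.93 and 3.86 RPKM untreated, 9.29 and 9.43 against 6.87 and 6.40 with oxLDL 10, and 19.6 and 20.4 against 16.3 and 14.8 with oxLDL 60. In the libraries with Xist, DKO replicate 3 was below Apoe-/- replicate 2 untreated (3.70 against 4.45) and with oxLDL 60 (12.9 against 17.4) and above it with oxLDL 10 (6.81 against 6.27).

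In a fit without the libraries that hold Xist, Hilpda was called higher in DKO untreated (log2 difference 0.57, limma adjusted p = 0.00262, 2.43% of all genes called in that fit) and with oxLDL 10 (0.49, limma adjusted p = 0.0146, 0.849% called), and not with oxLDL 60 (0.36, limma adjusted p = 0.0807, 0.589% called). That fit holds 2 libraries per group, and since the libraries with Xist carry 1 replicate number in each genotype, sex and replicate cannot be told apart. With a term for Xist in the fit of all 18 libraries Hilpda was not called, with a limma adjusted p of 0.235 untreated, 0.22 with oxLDL 10 and 0.811 with oxLDL 60.

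Other genes of neutral lipid storage were read from a list of 43 in 5 roles, of which 41 had a row and 31 could be tested. With oxLDL 60, 6 rose and 3 fell in Apoe-/- and 5 rose and 2 fell in DKO, where over all genes 7.13% and 6.78% were called higher and lower in Apoe-/- and 4.87% and 7.31% in DKO. The medians of log2 fold change were 0.18 and 0.04, beside 0.06 and -0.06 over all genes. With oxLDL 10, Plin2 alone was called, in both genotypes, and from oxLDL 10 to oxLDL 60, 5 genes rose in Apoe-/- and 2 in DKO, against 2.91% and 1.92% of all genes. No gene of the list was called between the genotypes or in an interaction by limma, where at most 0.21% of all genes were.

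Of the droplet coat and assembly genes, 8 of 15 could be tested and 2 rose with oxLDL 60 in each genotype, Plin2 and Plin3. Plin2, the main droplet coat protein of macrophages, averaged 246.5 ± 9.04, 422.6 ± 22.4 and 769.4 ± 27.8 RPKM (SD, n = 3) untreated, with oxLDL 10 and with oxLDL 60 in Apoe-/-. In DKO it averaged 326.2 ± 58.8, 500.6 ± 77.0 and 761.5 ± 52.2 RPKM. Its log2 fold change with oxLDL 60 was 1.64 in Apoe-/- (limma adjusted p = 1.8e-08) and 1.24 in DKO (limma adjusted p = 6e-07). Plin3, which coats nascent droplets, rose by 0.83 and 0.61 on the log2 scale. Hsd17b11, a droplet-associated dehydrogenase, was called only from oxLDL 10 to oxLDL 60 in Apoe-/-, where it rose by 0.51.

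Among 12 tested genes of glycerolipid synthesis, which build the diacylglycerol that the DGAT enzymes use, Gpat3 alone was called. Gpat3, an acyltransferase of the first step, averaged 0.313 ± 0.141 RPKM untreated and 0.897 ± 0.123 with oxLDL 60 in Apoe-/-, and rose in DKO from 0.481 ± 0.0907 to 1.20 ± 0.298 in DKO. The other 11 genes, with Agpat, Lpin and Gpam members, were not called.

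Of the acyl activation genes, which couple fatty acids to coenzyme A, 2 of 4 tested fell in both genotypes. Acsl1 fell with oxLDL 60 from 28.3 ± 4.12 to 16.8 ± 0.987 RPKM in Apoe-/- and from 29.1 ± 2.01 to 17.6 ± 0.70 in DKO. Acsl5 fell by 0.49 and 0.58 on the log2 scale in the same comparisons.

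Among 4 tested genes of other hydrolysis and sterol esterification, Lipa rose, and among 3 fatty acid carriers Fabp4 rose in both genotypes. Lipa, the acid lipase that splits cholesteryl esters in lysosomes, went from 370.1 ± 17.6 to 639.5 ± 9.30 RPKM in Apoe-/- and from 391.1 ± 23.8 to 619.4 ± 45.3 in DKO. Fabp4, a fatty acid binding protein shared by adipocytes and macrophages, rose by 1.63 and 1.15 on the log2 scale. Fabp5 rose (0.73) and Fabp3 fell (-0.64) in Apoe-/-, with values of 0.40 and -0.24 in DKO that did not pass. The differences between the genotypes for Fabp3 and Fabp5 did not pass the interaction test.

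**Figure D4:**
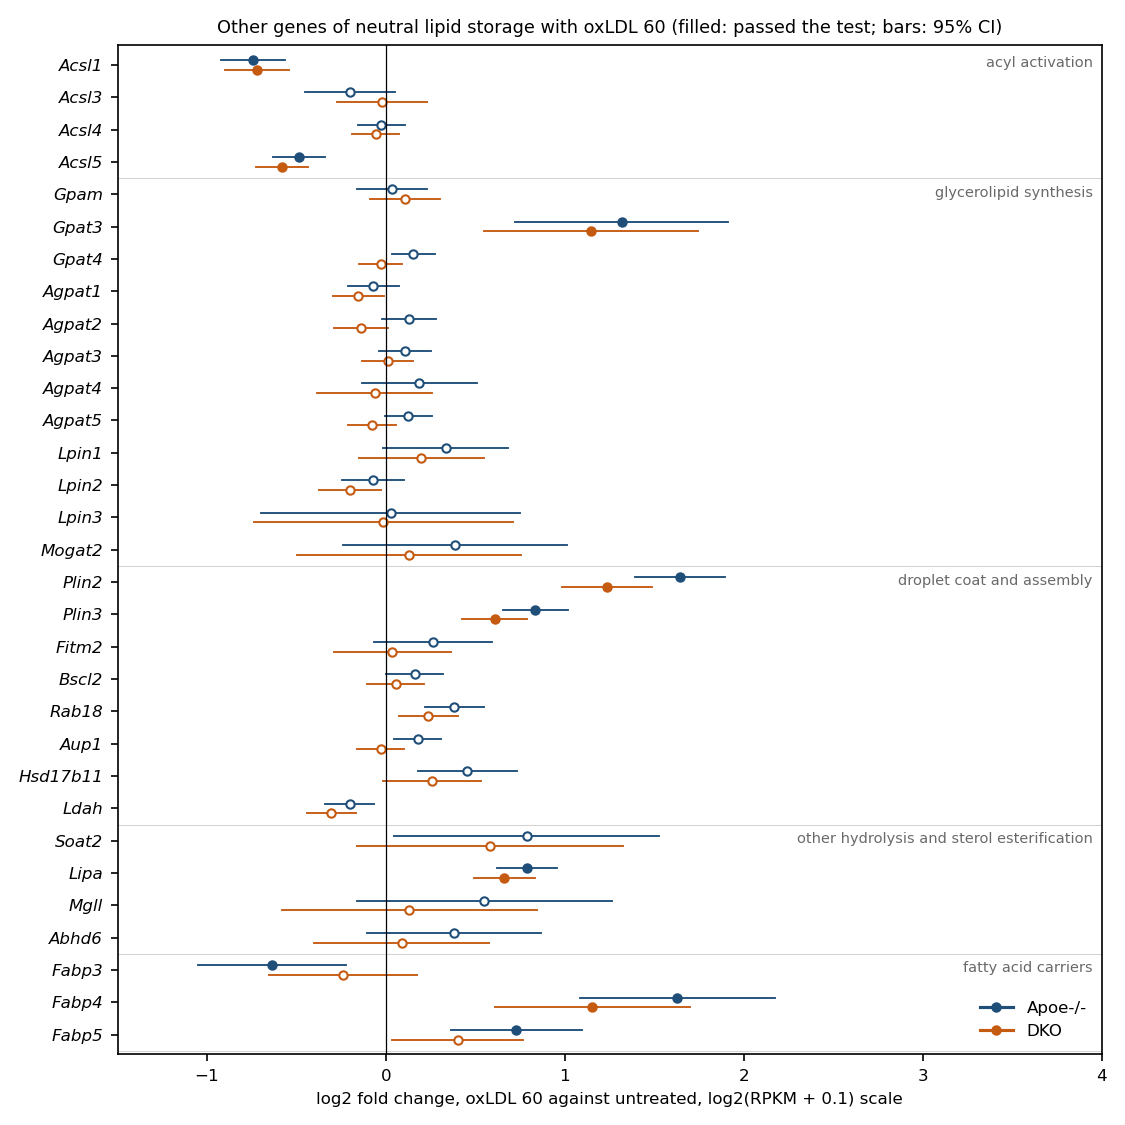
Log2 fold change with oxLDL 60 against untreated on the log2(RPKM + 0.1) scale (horizontal axis) of the 31 tested genes of neutral lipid storage by role, blue for Apoe-/- and orange for DKO. Bars are 95% confidence intervals and filled points passed the test; Plin2, Plin3, Gpat3, Lipa and Fabp4 lie right of 0 and Acsl1 and Acsl5 left of it in both genotypes, while the points of the glycerolipid genes other than Gpat3 are open.

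Across the 18 libraries, which share treatments, levels of the members were compared as a description. Pearson's r of log2(RPKM + 0.1) was 0.965 between Hilpda and Nceh1, 0.964 between Soat1 and Nceh1 and -0.930 between Lipe and Hilpda. After removing each group's mean, so that only differences between replicates remained, r was 0.717, 0.752 and -0.383 for the same pairs. For other pairs the sign turned, from -0.253 over all libraries to 0.660 between replicates for Hilpda and Abhd5, and from -0.835 to 0.197 for Soat1 and Lipe. Values for Pnpla2 ran from -0.436 with G0s2 to 0.537 with Lipe, and that with Lipe was 0.585 between replicates. Libraries of a genotype with the same replicate number shared deviations across treatments. The values between replicates therefore rest on fewer than 18 independent differences.

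Among 10095 tested genes with a mean of at least 1 RPKM, the 3 most like each member over the 18 libraries were listed by Pearson's r as a description. For Hilpda they were Gde1, Ptgr1 and Samd8 (0.986 to 0.989), and for Nceh1 they were Cpt1a, Nek6 and Emp1 (0.988 to 0.990). For Lipe they were Irf1, Cd14 and Ikbke (0.984 to 0.989), and for Soat1 they were Gla, Tlr13 and Flvcr1 (0.978 to 0.983). For the lowly expressed Dgat2 (Aebp2, Zbtb45 and Smarca4, 0.866 to 0.884) and G0s2 (Trib3, Chac1 and 1700017B05Rik, 0.853 to 0.865) the values were lower. Gla encodes a lysosomal alpha-galactosidase, Cpt1a the carnitine palmitoyltransferase that admits fatty acids to mitochondria, Irf1 an interferon-responsive transcription factor and Trib3 and Chac1 genes of the integrated stress response.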

How the data were processed

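RNA was sequenced from 18 libraries of mouse BMDM, 3 for each of 6 groups of genotype and oxLDL, grouped by their labels. Per the labels, the authors aligned reads with STAR to mm10, and they deposited 1 table of gene values in RPKM; DESeq2, which the study names for its own comparisons, needs counts and was not used here. The annotation and the use of strand in counting are not given in the sources used here. Of 18668 rows, 24 symbols had been turned into dates. Low values were whole multiples of the value of 1 read (99.4% of 20011 within 0.05 of a whole step, where even spread gives 10%), which gave the relative depth of the libraries. Absolute depth rests on exon lengths of the GENCODE M21 annotation, at the most common value (733 of 3760 genes within 0.5% of it). Reads per gene used the same lengths, or for Dgat2 and G0s2 lengths fitted to their own steps. These estimates did not change the test. A level of 3 reads over 1 kb corresponds to 0.0553 to 0.0755 RPKM. Estimates cover counting error only.

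The scale of analysis was log2(RPKM + 0.1), which shrinks fold changes where levels are low. A gene entered the test if 3 or more libraries reached 0.1 RPKM (12838 genes), and limma 3.58.1 (R 4.3.3) was run with 1 mean per group and eBayes with a trend. Benjamini-Hochberg adjustment covered all tested genes of a comparison, for 11 comparisons: 6 of oxLDL, 3 of genotype and 2 interactions. All tests were two-sided. The script was tested on simulated data. Members and gene lists were chosen with earlier results of these data known. All members are named, and other storage genes where called in any comparison.

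Replicates are described as biological, and nothing says which animals they came from. Within a genotype, deviations from the group means of libraries with the same replicate number correlated in all 18 pairs (r 0.183 to 0.695, median 0.405), against a median of -0.347 in 36 pairs with other numbers. Between genotypes the same number gave a median of -0.168 in 27 pairs, so the numbers pair libraries within a genotype only. The main test had no term for this pairing, and only the replicate block among the alternatives took it in. Alternatives were 0.01 or 1 RPKM added, no filter or 1 RPKM, median-ratio rescaling, only the compared groups, a replicate block, a term for Xist, leaving out the libraries with Xist, no fold limit, no trend, and leaving out each library.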

Additional observations from a re-analysis of the deposited data

How the results depend on the processing

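For 17 called changes of single members, 269 alternatives were fitted: 226 kept the call, 43 lost it and 0 turned the direction. Counts of members called moved as follows. With oxLDL 10 in Apoe-/- (1 member), the count was 0 without a filter or without a trend, 2 without the fold limit, and 0 to 1 when a library was left out; Hilpda was lost each time, and the 1 was Lipe, called without untreated replicate 1. With oxLDL 60 in Apoe-/- (5), leaving out a library gave 3 to 5, with 3 without oxLDL 60 replicate 2. From oxLDL 10 to oxLDL 60 in Apoe-/- (2) it was 1 without the libraries with Xist, where Nceh1 was lost (0.49), 4 without the fold limit, and 2 to 4 when a library was left out, with 4 without oxLDL 10 replicate 3. With oxLDL 10 in DKO (2) it was 1 with 1 RPKM added, without a filter or after rescaling, 0 with only the compared groups, and 0 to 2 when a library was left out, with 0 without untreated replicate 3 or oxLDL 10 replicate 1 or 2. With oxLDL 60 in DKO (5) it was 3 with 1 RPKM added, with a filter of 1 RPKM or without the libraries with Xist, the members being Hilpda, Lipe and Nceh1 each time, and 4 to 6 when a library was left out. From oxLDL 10 to oxLDL 60 in DKO (2) it was 1 with 1 RPKM added or after rescaling, and 1 to 3 when a library was left out, with 1 without oxLDL 10 replicate 3 or oxLDL 60 replicate 2. Between genotypes, untreated and with oxLDL 10 (0 each), it was 1 without the libraries with Xist, Hilpda; with oxLDL 60 and in both interactions it stayed 0 in the alternatives fitted. The causes were not tested. With the replicate block, which pairs libraries of a genotype, the counts were 1, 5 and 2 in Apoe-/-, 2, 5 and 2 in DKO and 0 in the other comparisons, as without it.

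Over all genes, rescaling moved the calls with oxLDL 10 in Apoe-/- from 96 higher and 262 lower to 69 and 331, from oxLDL 10 to oxLDL 60 in DKO from 246 and 480 to 361 and 360, and between genotypes untreated from 22 and 5 to 14 and 9. Depth limits G0s2 and Dgat2, with at most 22 and 55 estimated reads per library; fold changes of these genes rest on the value added before the log.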
